A study of Mus musculus with 4 samples.

Results

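The genes described here encode the proteins of the cytosolic ribosome, the particle that makes all proteins outside the mitochondria. They were chosen by symbol (Rpl or Rps with a number, and the stalk and laminin-receptor genes Rplp0, Rplp1, Rplp2 and Rpsa) and needed at least 100 UMIs (unique molecular identifiers, a count of captured mRNA molecules) over all libraries. Of 83 such symbols among 31053 listed genes, 82 met the minimum, 50 of the large and 32 of the small subunit, and the retrogene Rpl10l had 0 UMIs. The symbols follow textbook ribosome membership, and the set also holds paralogs such as Rps27l and Rpl3l that can replace a standard protein, as well as Rpl7l1, a factor of ribosome assembly. RNA was counted at the 3′ end of polyadenylated transcripts in single cells of mouse pancreatic tumours.

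The tumours came from B6KPC3 cells placed in the pancreas of C57BL/6 mice, and the sequenced cells were enriched for CD45, the surface marker of leukocytes. Treatment began 7 days after implantation and lasted 7 days. The control mice received vehicle alone, 1% carboxymethyl cellulose in water, and the treated mice received the compound AT38, known here by its code name, at 30 mg/kg per day in that vehicle, both given as a pair of daily intraperitoneal injections. There were 2 libraries per group, vehicle 1 and 2 and AT38 1 and 2, each from a pool of 4 mice, so no value belongs to a single mouse, and p-values measure the spread between pools.

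Ribosomal protein mRNAs are among the most abundant mRNAs of a cell and are made in near-equal molar amounts for assembly. Most of them start with a C followed by a run of pyrimidines, the 5′ terminal oligopyrimidine or TOP motif, through which the kinase mTORC1 and the protein LARP1 tie their translation and stability to growth signals. In leukocytes, lymphocytes raise ribosome production when they are activated, whereas mature neutrophils are short-lived cells that carry granule proteins made earlier in the bone marrow. A few members have paralogs with cell-type-limited use: Rpl3l is known from heart and skeletal muscle, Rps27l is a target of p53, and Rpl22l1 is held down by Rpl22.

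The start regions of a few genes are shown first, to show what a pyrimidine run looks like in members with a long run and in members with a shorter one. RefSeq (GRCm38.p6) gave a start for 62 of the 82 members, and the other 20 had no entry. Each line is 30 bases of the sense strand, 10 before and 20 from the annotated start, with the longest run of C or T in capitals. Rps27 (chr3:90213629-90213658, minus strand), Rps6 (chr4:86857348-86857377, minus), Rpl13a (chr7:45128726-45128755, minus), Rps15a (chr7:118116128-118116157, minus) and Rps9 (chr7:3704031-3704060, plus) stand for genes with a long run. Rps27l (chr9:66946076-66946105, plus), Rpl7l1 (chr17:46782637-46782666, minus), Rpl3l (chr17:24727816-24727845, plus) and Rps4x (chrX:102189372-102189401, minus) have shorter runs, and all 9 were chosen after their values were seen, since most of them are described below.
Rps27: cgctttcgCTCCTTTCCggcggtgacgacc
Rps6: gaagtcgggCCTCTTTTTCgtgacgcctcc
Rpl13a: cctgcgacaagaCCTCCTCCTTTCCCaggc
Rps15a: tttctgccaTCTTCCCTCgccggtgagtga
Rps9: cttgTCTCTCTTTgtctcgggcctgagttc
Rps27l: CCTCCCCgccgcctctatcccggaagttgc
Rpl7l1: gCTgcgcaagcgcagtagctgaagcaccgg
Rpl3l: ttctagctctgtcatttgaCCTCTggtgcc
Rps4x: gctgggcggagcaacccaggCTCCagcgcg
A run of at least 8 letters made only of C and T on the sense strand lay in this window in 21 of 62 members (33.9%) and in 3693 of 32851 starts of all genes (11.2%). Within 50 bases on either side of the start the shares were 80.6% and 35.7%. In that wider stretch the longest run was 9 to 14 letters in the genes printed with a long run. It was 9 in Rps27l and Rpl3l, the same as in Rps27 and Rps9, and 7 in Rpl7l1 and Rps4x. The annotated starts can miss the used start: the RefSeq and GENCODE starts lay 0 to 48 bases apart for the 9 genes printed. A match is a string of letters and not a measured site.

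The libraries held 24875092 and 34386076 UMIs with vehicle and 30232623 and 24294215 with AT38, over 3543, 6211, 4474 and 3773 barcodes, and pairs of libraries shared 0 to 8 barcodes. After filters 14294 cells were kept, of which 13261 fell into 6 classes named by marker genes: 4516 neutrophils, 2181 mononuclear phagocytes (monocytes and macrophages), 1576 dendritic cells, 1223 B cells, 3196 T cells and 569 natural killer (NK) cells. Class names mean cells that match those markers. The ribosomal protein genes and other translation genes were left out of the clustering, so that they did not define the classes. The cells were still grouped on other genes of the same libraries, so a p-value between classes measures how well a difference repeats over the 4 libraries.

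Ribosomal protein mRNA made up 4.57% ± 0.518 of all UMIs in neutrophils, against 13.5% ± 0.425 in mononuclear phagocytes and 17.3% ± 0.486 in dendritic cells (SD, n = 4 libraries). The lymphocyte classes, each taken as a whole, lay above these, with 19.4% ± 0.824 in NK cells, 19.99% ± 0.531 in T cells and 22.1% ± 1.28 in B cells (SD, n = 4). In vehicle 1, vehicle 2, AT38 1 and AT38 2 the neutrophil share was 4.17%, 4.08%, 4.95% and 5.08%, and the B cell share was 21.2%, 20.9%, 22.3% and 23.7%. In these summed shares neutrophils, phagocytes and dendritic cells did not overlap with each other or with any lymphocyte class in any library. By the median over cells, NK cells of vehicle 2 (16.5%) lay among the dendritic cell libraries (16.4% to 17.3%). NK cells (19.9%, 18.2%, 19.4% and 19.96%) and T cells (20.003%, 19.6%, 19.6% and 20.7%) overlapped, and B cells lay above both.

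Naive-like T cells, the 289 T cells with markers of cells that have not met antigen, had the highest share of any group, 28.3% ± 0.547 (SD, n = 4), and their 4 values ran from 27.8% to 29.0%. Antigen-experienced CD8 T cells stood at 19.99% ± 0.837, antigen-experienced CD4 T cells at 16.5% ± 0.370, regulatory T cells, which restrain other T cells, at 16.2% ± 0.755, and gamma-delta T cells at 17.2% ± 0.553. Cycling T and NK cells stood at 19.5% ± 1.09. Among dendritic cells, the share was 18.5% ± 0.686 in cDC1, which cross-present antigen to CD8 T cells, 17.6% ± 0.380 in cDC2 and 16.2% ± 0.553 in mature dendritic cells, the Ccr7-positive cells that migrate to lymph nodes. As shares of summed UMIs, monocytes (14.0% ± 0.0915) and macrophages (13.3% ± 0.561) lay close to each other. By the median over cells macrophages were lower, at 11.01% against 13.3% in monocytes. These medians did not overlap between the libraries of each type. Mast cells or basophils stood at 20.1% ± 0.994 and the few epithelial cells that came through the sort at 21.3% ± 3.09.

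Depth differed between the classes. The median was 2131.5 UMIs per neutrophil, 3028 per B cell, 4141 per NK cell, 4318.5 per T cell, 7035 per phagocyte and 12980 per dendritic cell. The order of the shares is not the order of the depths: B cells, the second shallowest class, had the highest share, and naive-like T cells had a median of 3274 UMIs. A cluster of 457 macrophages with a median of 991 UMIs had a share of 12.0% ± 1.54 (SD, n = 4), and without it the phagocyte share was 13.5% ± 0.487.

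**Figure D1:**
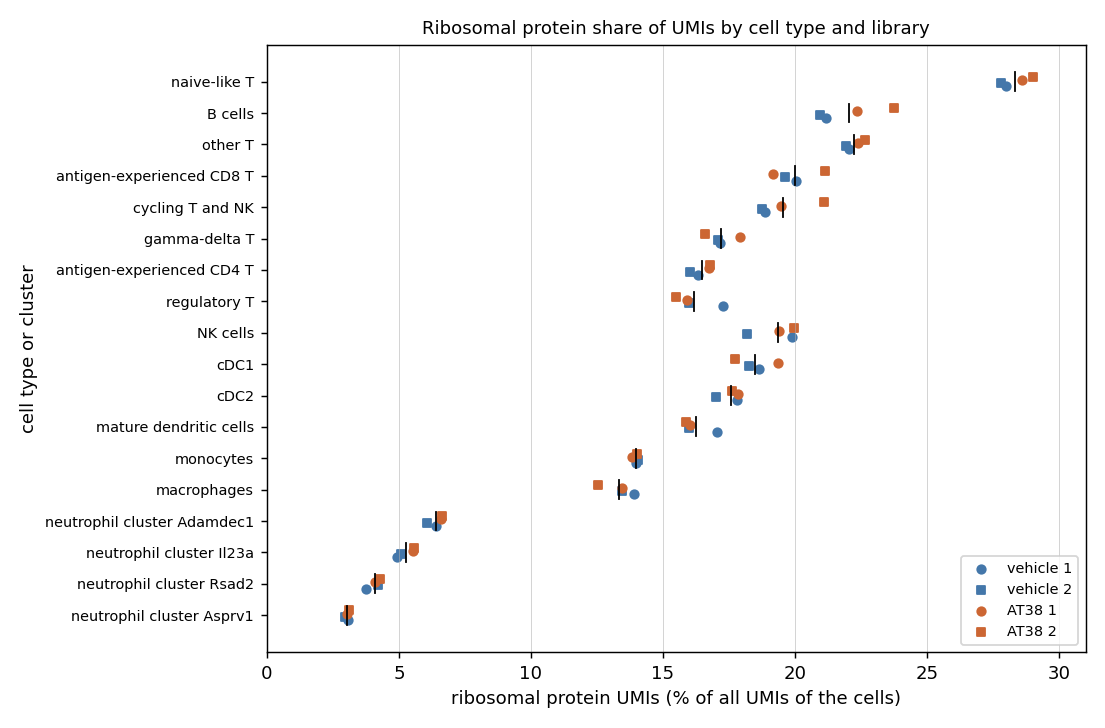
Share of UMIs in ribosomal protein genes (percent, x axis) by cell type and neutrophil cluster (y axis), 1 point per library, vehicle and AT38 in different colours, lines at the mean. The neutrophil clusters drawn sit at 2.95% to 6.65% and naive-like T cells at 27.8% to 29.0%.

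To ask which members carry these differences, UMIs were summed per library and class, and each class was compared with the mean of the other 5 (edgeR's quasi-likelihood test with library as a term, Benjamini-Hochberg adjustment over 11354 genes). In neutrophils 78 of the 81 tested members were lower, with 36.5% of all genes called lower, and 2 were higher, with 35.6% of all genes called higher. Their median log2 difference was −1.38, against −0.08 over all genes. Large and small subunit members had medians of −1.38 and −1.33. Since the share of all genes called is high, the members' counts are best read beside it and beside the medians. The fit uses TMM scaling, which sets most genes equal between classes, and CPM values do not. Scaled to library size alone, an alternative chosen after seeing the data, the median of all genes was −0.76 in neutrophils, 0.35 in T cells, 0.24 in NK cells and 0.13 in phagocytes, and 80 members were lower in neutrophils (61.5% of all genes) with a median of −2.05.

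B cells showed the reverse, with 78 members higher (28.9% of all genes) and 2 lower (28.9%), and a median of 0.68 against −0.03 over all genes. Dendritic cells had 74 higher (36.9%) and 1 lower (27%), median 0.37. T cells had 68 higher (32.5%) and 5 lower (26.7%), median 0.28. NK cells had 65 higher (19.8%) and 5 lower (23.2%), median 0.25. For every class but neutrophils, the reference mean includes neutrophils, whose low levels raise that class's values. The class contrasts are therefore not independent findings. In phagocytes 52 were lower (26.4%) and 7 higher (34.7%), with a small median of −0.16. Only 34 were lower there without the low-count filter and 30 with library size alone. By mean level over the libraries, B cells were the highest class for 54 members, T cells for 11, dendritic cells for 8, NK cells for 8 and neutrophils for 1. Neutrophils were the lowest class for 80 of 82 members.

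**Figure D2:**
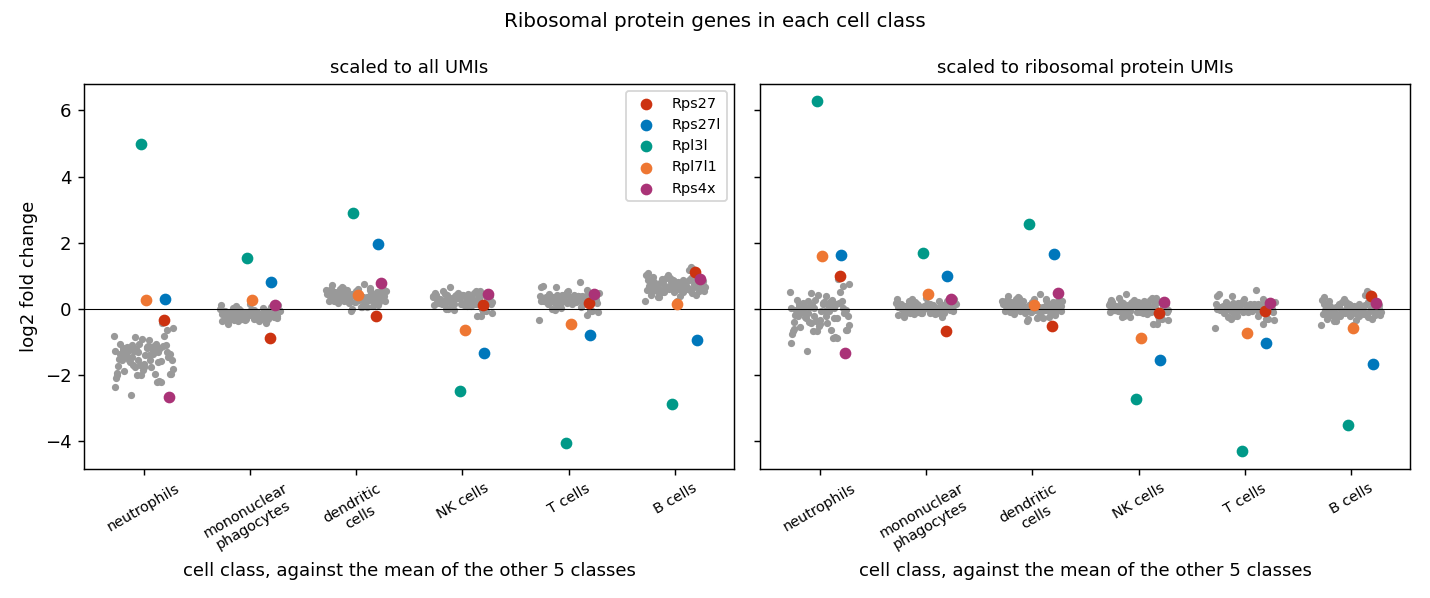
log2 difference of each member between a cell class and the mean of the other classes (y axis), 1 point per tested member. The left panel shows the fit with TMM scaling, although its title reads all UMIs. The right panel is scaled to ribosomal protein UMIs. On the left, nearly all neutrophil points lie below 0 around a median of −1.38, and B cell points above 0 around 0.68. A few paralogs lie far from the rest, and medians are not drawn.

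Since the whole set moves together, each class was also compared with the summed UMIs of the members as library size, which asks whether a member takes another share of the ribosomal protein mRNA. Under this scaling the median of all genes moved to 1.24 in neutrophils, 0.24 in phagocytes, −0.26 in dendritic cells, −0.75 in B cells, −0.22 in T cells and −0.27 in NK cells, so the values are differences relative to the other members. In neutrophils 28 members took a higher share (71.2% of all genes called higher) and 35 a lower one (7.71%). In phagocytes these counts were 27 (45.7%) and 15 (15.9%), in dendritic cells 32 (23.4%) and 11 (44.7%), in B cells 22 (9.52%) and 31 (62.9%), in T cells 21 (18.5%) and 14 (41.7%), and in NK cells 26 (12.8%) and 15 (34.4%). The background percentages follow the moved median and are not a reference for the members here. In neutrophils 57 of the 81 members lay within 0.5 of 0 on this scale, and in the other 5 classes 76 to 78 did.

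The stalk proteins recruit elongation factors to the ribosome. Rplp0, which anchors the stalk, stood at 486, 510, 621 and 641 CPM (counts scaled to a common library size within the class) in neutrophils of vehicle 1, vehicle 2, AT38 1 and AT38 2, and at 1549 to 1678 CPM in phagocytes. Its log2 difference in neutrophils was −1.13 ± 0.0502 (SE, adjusted p = 1.95e-20). Rplp1 (−1.40) and Rplp2 (−0.93), the paired stalk tips, were lower there too. All 3 were higher in B cells (0.39, 0.69 and 0.61 in the same order) and T cells (0.31, 0.41 and 0.28). Within the ribosomal protein pool the direction in neutrophils turned for Rplp0 (0.20, adjusted p = 0.000558) and Rplp2 (0.39, adjusted p = 2.93e-09), while Rplp1 did not pass (−0.08). In dendritic cells Rplp0 passed with TMM (0.38), and Rplp1 (0.04) and Rplp2 (0.06) did not.

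Rpsa, a small subunit protein that also exists as the laminin receptor, stood at 498, 552, 688 and 582 CPM in neutrophils and at 2097 to 2690 CPM in phagocytes. The difference for Rpsa in neutrophils was −1.81 ± 0.0539 (SE), and within the pool it was still −0.49 (adjusted p = 1.01e-09). Rpsa was higher in B cells (0.65), dendritic cells (0.55) and T cells (0.48). No library of one of these classes overlapped with neutrophils.

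The largest relative losses in neutrophils were in Rps4x, Rpl3 and Rpl10a. Rps4x (chrX:102184941-102189394, minus strand), the X-linked copy of a small subunit protein, stood at 189, 157, 218 and 241 CPM in neutrophils, and at 1460 to 2415 CPM in the libraries of all other classes. That is a log2 difference of −2.67 ± 0.0577 with TMM and −1.35 ± 0.0615 within the pool (SE, adjusted p = 1.11e-29 and 5.36e-20). Rpl3 (chr15:80077791-80091868, minus strand), next to the peptidyl transferase centre, stood at 138, 129, 175 and 164 CPM in neutrophils and at 968 to 1816 CPM elsewhere. Its differences were −2.61 with TMM and −1.29 within the pool. For Rpl10a, a large subunit protein, they were −2.36 and −1.03. In all 3 genes the highest neutrophil library lay far below the lowest library of any other class. Rps4x was also the member with the largest share gain in dendritic cells among the standard subunits (0.47 within the pool, adjusted p = 1.62e-09).

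Rps27, a zinc finger protein of the small subunit, behaved differently. In neutrophils it stood at 2212, 2036, 2121 and 2196 CPM, close to phagocytes at 2591, 2326, 2421 and 2378 CPM. The highest neutrophil library lay below the lowest phagocyte library by a small margin. Dendritic cells stood at 3272 to 3543 CPM, NK cells at 4382 to 5061, T cells at 4651 to 5329 and B cells at 6977 to 7761 CPM. Rps27 was called lower in neutrophils with TMM (−0.33, adjusted p = 6.84e-09), and higher within the pool (1.00 ± 0.0488, SE, adjusted p = 3.84e-19). In phagocytes it was lower on both scales (−0.87 and −0.67), in B cells higher on both (1.12 and 0.39).

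Rps27l, the paralog of Rps27, ran the other way. Its levels were 622, 719, 722 and 865 CPM in dendritic cells, 371 to 425 CPM in phagocytes, 158, 173, 214 and 218 CPM in neutrophils, 160 to 190 CPM in T cells, 112 to 152 CPM in NK cells and 75.6 to 205 CPM in B cells. Dendritic cells lay above all other classes in every library (1.97 ± 0.123, SE, adjusted p = 1.69e-10), phagocytes came next (0.80, adjusted p = 4.91e-05), and B cells overlapped with T cells and NK cells. Rps27l was called lower in B cells (−0.94), T cells (−0.78) and NK cells (−1.34). In neutrophils Rps27l did not pass with TMM (0.30, adjusted p = 0.0731) and was lower with library size alone (−0.37, adjusted p = 0.0331). Within the pool Rps27l took a higher share there (1.62, adjusted p = 3.5e-10).

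The ratio of the pair removes the level of the whole set. There were 35.5 ± 8.26 Rps27l UMIs per 100 Rps27 UMIs in mature dendritic cells (26.05, 31.1, 41.6 and 43.2 in vehicle 1, vehicle 2, AT38 1 and AT38 2), 18.1 ± 1.38 in cDC1 and 12.3 ± 0.934 in cDC2 (SD, n = 4). Macrophages had 16.8 ± 1.3004, monocytes 13.6 ± 2.44, cycling T and NK cells 13.8 ± 2.26 and neutrophils 8.91 ± 1.37. Among lymphocytes outside the cycling cluster the ratio was 6.64 ± 0.606 in regulatory T cells, 4.64 ± 0.751 in antigen-experienced CD8 T cells, 4.00 ± 0.226 in antigen-experienced CD4 T cells, 2.70 ± 0.360 in NK cells, 1.87 ± 0.708 in B cells and 0.634 ± 0.177 in naive-like T cells. These ratios are compared between cell types only, since the counts of different genes depend on their 3′ ends. A near copy, Rps27rt, shares sequence with Rps27, and reads of the pair may be split between them, so the absolute ratio is uncertain.

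**Figure D3:**
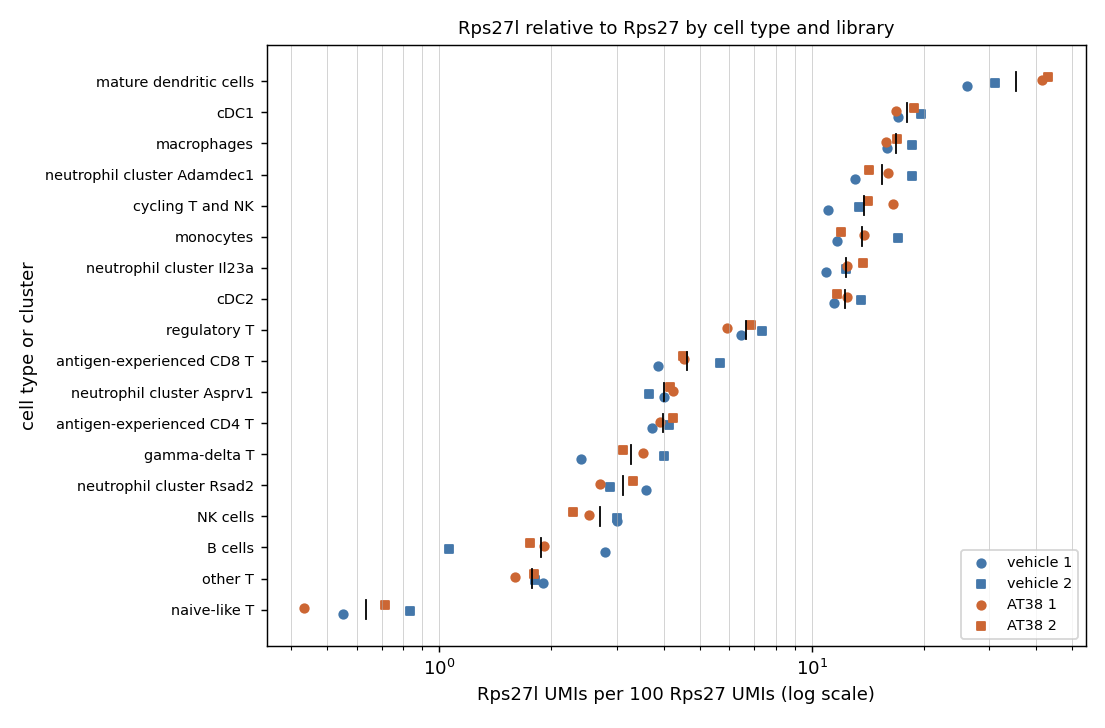
Rps27l UMIs per 100 Rps27 UMIs (x axis, log scale) by cell type and neutrophil cluster (y axis), 1 point per library. Mature dendritic cells lie at 26.05 to 43.2 and naive-like T cells below 1.

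Rpl22, a large subunit protein, and Rpl22l1, its paralog, both fell in neutrophils (−1.17 and −1.87). There were 19.8 ± 2.45 Rpl22l1 UMIs per 100 Rpl22 UMIs in neutrophils (22.2, 21.5, 18.6 and 16.9 in library order) and a mean of 29.6 to 36.0 in the other 5 classes. The neutrophil clusters described below differed in this ratio. It was 33.8 ± 6.89 in the Asprv1 cluster, within the range of the other classes. The Rsad2 cluster had 23.7 ± 4.83, the Il23a cluster 17.7 ± 2.95 and the Adamdec1 cluster 13.1 ± 3.59. In the small Ngp cluster it was 47.6 ± 23.4. Within the pool Rpl22l1 took a lower share in neutrophils (−0.55, adjusted p = 2.31e-09) and a higher one in NK cells (0.33, adjusted p = 2.25e-05). In neutrophils Rpl7 fell by 1.77 on the log2 scale. Rpl7l1 stood at 20.1 to 31.01 CPM there, which overlapped with NK cells at 19.7 to 27.5 CPM. Its direction depended on the scaling: 0.28 with TMM (adjusted p = 0.0317) and −0.40 with library size alone (adjusted p = 0.0037). Rpl7l1 per 100 Rpl7 UMIs was 9.71 ± 1.20 in neutrophils, 3.53 in phagocytes, 3.19 in dendritic cells, 2.25 in B cells, 1.83 in T cells and 1.61 in NK cells. Rpl7l1 was lower in T cells (−0.47) and NK cells (−0.65) with TMM, and passed in neither with library size alone (−0.16 and −0.37).

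Rpl3l (chr17:24727820-24736143, plus strand) was the member for which neutrophils were the highest class. Its 182 UMIs there lay in 163 of 4516 cells (3.61%). The levels were 11.9, 11.9, 20.4 and 23.5 CPM in neutrophils, 4.69 to 11.1 CPM in dendritic cells and 2.91 to 3.73 CPM in phagocytes. Dendritic cells had a UMI in 125 of 1576 cells (7.93%) and phagocytes in 59 of 2181 (2.71%). Lymphocytes had almost none: 2 of 3196 T cells (0.0626%), 1 of 1223 B cells (0.0818%) and 1 of 569 NK cells (0.176%), although these cells were deeper than neutrophils. Fitted folds against classes with 1 or 2 UMIs are not printed, because they depend on the prior count.

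The gene Msrb1, a methionine sulfoxide reductase, starts 498 bases downstream of Rpl3l on the same strand. Msrb1 stood at 1003 ± 37.6 CPM in neutrophils, 337 ± 45.1 in phagocytes, 85.7 ± 4.79 in dendritic cells and 19.5 to 31.1 CPM as class means in lymphocytes (SD, n = 4). Its order follows that of Rpl3l except in dendritic cells. Whether reads from transcripts of one gene were counted for the other was not tested. Besides this neighbour, 5 of the 82 members overlap another gene on their own strand (Rpl13, Rpl13a, Rpl19, Rpl24 and Rps10), and many members have near-identical processed pseudogenes, so their absolute levels are uncertain.

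Rpl39 lines the exit tunnel of the large subunit. It was lower in neutrophils (−1.70) and phagocytes (−0.31) and higher in B cells (0.82), dendritic cells (0.44), T cells (0.41) and NK cells (0.34). Its testis-enriched paralog Rpl39l was not tested at this depth: 2 to 42 UMIs were found per class, and 79.5% of those in dendritic cells came from 5 cells.

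Other named members differed in their own ways. Rps19, whose human gene is mutated in Diamond-Blackfan anaemia, stood at 483, 457, 644 and 651 CPM in neutrophils, at 2005 to 2334 CPM in NK cells and at 3861 to 4184 CPM in B cells. It was higher in B cells (1.16 ± 0.0454, SE, adjusted p = 2.35e-21) and, unlike most members, lower in NK cells (−0.22, adjusted p = 0.000521), where it did not pass with library size alone (0.06). Rpl10, an X-linked protein that joins the large subunit late, was lower in T cells (−0.33, adjusted p = 8.37e-07, and −0.03 with library size alone, which did not pass) and stood at 1334 to 1816 CPM in NK cells, which overlapped with dendritic cells at 1364 to 1546 CPM. Within the pool Rpl10 took a higher share in neutrophils (0.50) and a lower one in T cells (−0.59) and B cells (−0.48). Rpl13a, part of the translation-silencing complex of myeloid cells, was at 324 to 403 CPM in T cells and 33.3 to 56.6 CPM in neutrophils, and its T cell share of the pool was higher (0.44, adjusted p = 2.52e-07). An overlapping gene model on the same strand makes Rpl13a uncertain.

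Rps6, the S6 kinase substrate, was lower in neutrophils (−1.37) and phagocytes (−0.22) and higher in the other 4 classes (0.21 to 0.64). Rpl5 and Rpl11, which can bind MDM2 and so signal ribosome stress to p53, fell in neutrophils (−1.84 and −1.29) and were higher in B cells (0.84 and 0.57). Rpl38, known for its role in translating Hox mRNAs, was lower in neutrophils (−1.07) and phagocytes (−0.34), and its value in dendritic cells was 0.01, which did not pass. Within the pool, B cells took larger shares of Rps20 (0.54), Rps24 (0.48) and Rps19 (0.43), and T cells of Rps15a (0.56, adjusted p = 5.14e-12), Rpl13a and Rpl3 (0.40). In NK cells the largest gains within the pool were in Rpl3 (0.45), Rps18 (0.33) and Rpl22l1. Dendritic cells held smaller shares of Rps27 (−0.53), Rpl37a (−0.37) and Rpl38 (−0.30), and phagocytes of Rps27 and Rps21 (−0.24).

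Genes that work with the ribosome were counted from lists set up for this purpose, and over all genes 36.5% were called lower and 35.6% higher in neutrophils. There 5 of 8 tested elongation factor genes were lower and 2 higher, with Eef1a1 at −1.57, Eef1g at −2.66 and Eef2 at −1.70. Ribosomal genes outside the symbol rule followed, with 1 of 6 higher and 4 lower, among them Rack1 (−2.14), a scaffold of the small subunit. Of 9 other mRNAs with a TOP start 8 were lower and 0 higher, for example Npm1 (−1.75), a nucleolar chaperone. Of 30 ribosome biogenesis genes 27 were lower and 1 higher, including Gnl3 (−1.57) and Ncl (−0.96). Mitochondrial ribosomal proteins, which serve another ribosome, were lower for 43 and higher for 14 of 77. With library size alone, under which 61.5% of all genes were lower, these lists had 6, 6, 9, 29 and 69 lower.

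Initiation factors were mixed in neutrophils, with 19 of 30 lower and 6 higher. Eif5 (1.57) and Eif1 (1.28), which select start codons, were higher, and the eIF3 subunit gene Eif3f (−1.70) was lower. Of 17 mTORC1 and TOP regulators 5 were higher and 8 lower, which is near the shares of all genes. Those with the smallest p were Eif4ebp1 (2.22), a repressor of cap-dependent translation, Ddit4 (1.53), an mTORC1 inhibitor, and Rheb (1.17), its activator. Of 15 genes of the integrated stress response and ribosome rescue 8 were higher and 3 lower, but 5 and 7 with library size alone, with Sesn2 at 2.92, Ddit3 at 1.70 and Atf4 at 0.61. The nuclear RNAs Malat1 (1.27) and Neat1 (2.49) were also higher, as were 6 of the 10 genes on the list of nuclear-retained and dissociation-induced RNAs, with 2 lower. Their part in the low ribosomal protein share of neutrophils was not tested.

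In B cells, where 28.9% of all genes were called in each direction, 23 of 30 ribosome biogenesis genes were higher and 1 lower, among them Gnl3 (2.23) and Ncl (0.87), and Myc, a driver of ribosome production, was higher by 3.51 ± 0.115 (SE). All 6 tested ribosome genes outside the rule and 5 of 8 elongation factors, such as Eef1g (1.29), were higher, and 2 elongation factors were lower. Mitochondrial ribosomal proteins were lower for 29 and higher for 6 of 77. Dendritic cells, with 36.9% of all genes higher and 27% lower, had 58 of 77 mitochondrial ribosomal proteins higher and 0 lower. Of 30 initiation factors 23 were higher there and 4 lower. Their biogenesis genes were 8 higher and 7 lower of 30, no more than all genes.

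T cells, the cells named in the study's title, were split further by state. Naive-like T cells were compared with antigen-experienced CD4 and CD8 T cells. Of 80 tested members 77 were higher (20.6% of all genes) and 2 lower (21.8%), with a median of 0.77 against −0.06 over all genes. With library size alone 70 were higher and 3 lower (12.7% and 35% of all genes), and the medians were 0.46 and −0.37. Rps29, a small zinc-binding protein of the small subunit, stood at 12196, 11257, 11919 and 12173 CPM in naive-like T cells and at 4856 to 5106 CPM in antigen-experienced CD4 T cells, and its log2 difference was 1.46 ± 0.043 (SE, adjusted p = 1.4e-39). Rps19 (1.45 ± 0.0491) and Rplp1 (1.36 ± 0.0464) followed, and the smallest rise was in Rpl7a (0.24), which did not pass with library size alone (−0.07). The 2 lower members were Rps27l (−1.44, adjusted p = 2.51e-10), at 52.6, 76.98, 38.9 and 72.1 CPM in naive-like cells, and Rpl7l1 (−0.96, adjusted p = 0.0411). In the same cells 6 of 7 elongation factors were higher and 0 lower (4 and 1 with library size alone), for example Eef1b2 (0.85), as was the TOP mRNA Tpt1 (1.31). The mitochondrial ribosomal proteins went the other way, with 30 of 72 lower and 1 higher. Of the nuclear-retained and dissociation-induced genes 9 of 10 were higher as well (7 with library size alone), such as Fos (1.65) and Malat1 (0.81), and their part in the result was not tested.

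Cycling T and NK cells were compared with the T cells outside that cluster. Here 28 of 80 members were higher (26.5% of all genes) and 18 lower (25.3%), with a median of 0.06, near the −0.01 of all genes. These counts were 25 and 27 with library size alone, and 22 and 26 without the low-count filter. Rps27l rose by 1.22 ± 0.0717 (SE), to 341, 396, 455 and 425 CPM, together with Rpl7l1 (0.81) and Rps2 (0.62). Rps27 fell by 0.75 on the log2 scale, to 2748 to 3081 CPM, with Rpl37a (−0.41) and Rps21 (−0.35). Against those 26.5% and 25.3% of all genes, 15 of 30 ribosome biogenesis genes were higher and 0 lower, 63 of 77 mitochondrial ribosomal proteins were higher and 0 lower, and 9 of 10 genes of the nuclear-retained and dissociation-induced list were lower. The part of that list in the result was not tested.

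In the myeloid line, macrophages were compared with monocytes, from which they can arise. Of 80 members 44 were lower (18.5% of all genes) and 2 higher (17.7%), with a median of −0.20 against 0.03 over all genes. Rps27a, a ubiquitin fusion, stood at 2309 to 2649 CPM in macrophages and 3020 to 3367 CPM in monocytes (−0.51 ± 0.0536, SE). Rpl10 stood at 1026 to 1070 CPM and 1310 to 1401 CPM (−0.51 ± 0.0607), and Rps9 at −0.46 was also lower. Neither Rps27a nor Rpl10 overlapped between the groups. Rpl12 (0.32) and Rplp1 (0.24) were the 2 members that were higher. Scaled to library size alone, 19 members were lower and 9 higher (12.9% and 24.5% of all genes), and Rps27a, Rpl10, Rpl12 and Rplp1 kept their direction and their call. The low-depth macrophage cluster was part of this comparison, and the part of depth in these small differences was not tested.

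Mature dendritic cells, compared with cDC1 and cDC2, had 36 of 81 members lower (26.8% of all genes) and 7 higher (27.2%), with a median of −0.11 against 0.00 over all genes. Rps27l stood apart at 1036, 1110, 1406 and 1568 CPM, against 542 to 585 CPM in cDC1 and 383 to 416 CPM in cDC2 (1.54 ± 0.116, SE, adjusted p = 7.82e-06). Rpl3l (1.32, adjusted p = 0.000255) and Rps19 (0.51) were higher too. Rpl7l1 (−0.54), Rps27a (−0.51) and Rpl14 (−0.50) were the lowest. Ribosome biogenesis genes were lower for 25 of 30 and higher for 0.

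Neutrophils held 5 clusters, named here by a leading gene. The Asprv1 cluster had 2009 cells, the Il23a cluster, with the cytokine gene Il1a, 1407, the Adamdec1 cluster, with Siglecf and also Il1a, 594. The Rsad2 cluster, led by an antiviral interferon-induced gene and the heat shock genes Hspa1b and Hspa1a, had 447. The Ngp cluster, with the granule genes Camp and Ltf, had 59. The ribosomal protein share was 3.09%, 2.95%, 3.02% and 3.12% in the Asprv1 cluster of vehicle 1, vehicle 2, AT38 1 and AT38 2. The Rsad2 cluster stood at 3.75%, 4.22%, 4.08% and 4.29%, the Il23a cluster at 4.93%, 5.07%, 5.52% and 5.58%, and the Adamdec1 cluster at 6.39%, 6.05%, 6.59% and 6.65%. In these shares of summed UMIs the 4 clusters did not overlap. By the median over cells, the Rsad2 and Asprv1 clusters both stood at 2.83% in vehicle 1. In the other libraries Rsad2 was higher (2.99% to 3.37% against 2.59% to 2.75%). The 59 Ngp cells, at 2.29% to 7.76% of their summed UMIs, were too few for a test. Per cell, the median share of Ngp cells was 3.02% and 1.66% with vehicle and 2.43% and 1.28% with AT38. Median depth was 1917 UMIs in the Asprv1, 2103 in the Rsad2, 2172 in the Il23a and 3347.5 in the Adamdec1 cluster, the same order as the shares.

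Against the Asprv1 cluster, the Adamdec1 cluster had 69 of 81 members higher (33.9% of all genes) and 4 lower (32.6%), median 0.70. The Il23a cluster had 68 of 81 higher (28.2%) and 4 lower (28.5%), median 0.58, and the Rsad2 cluster had 62 of 79 higher (23.4%) and 1 lower (22.9%), median 0.44. Without the low-count filter the Rsad2 count was 25 of 82 (5.22% of all genes), and the other 2 clusters had 59 and 60. The medians were 1.33, 0.94 and 0.50 with library size alone, and those of all genes 0.68, 0.40 and 0.04. The nuclear-retained and dissociation-induced list moved too, with 7 of 10 lower in the Adamdec1, 5 lower in the Il23a and 7 higher and 1 lower in the Rsad2 cluster, but with library size alone 3 were higher and 3 lower in the Adamdec1 and 5 higher and 1 lower in the Il23a cluster. Hspa1a and Hspa1b are on this list and are also leading genes of the Rsad2 cluster. The part of the list in these differences was not tested. Rps19 stood at 246, 213, 211 and 198 CPM in the Asprv1 cluster, at 683, 730, 824 and 798 CPM in the Il23a cluster (1.45 ± 0.0861, SE) and at 860, 814, 945 and 965 CPM in the Adamdec1 cluster (1.43 ± 0.0919). Rps27l rose in the Il23a cluster (1.42), and Rpl7l1 (1.54) and Rps18 (1.45) in the Adamdec1 cluster. Rpl12 (1.296), Rps20 (1.16) and Rpl3 (1.14) led in the Rsad2 cluster.

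Rps9 went against the rest. It stood at 1396, 1622, 1602 and 1660 CPM in the Asprv1 cluster and at 1052, 1150, 1269 and 1265 CPM in the Adamdec1 cluster, with no overlap (−1.01 ± 0.0685, SE, with TMM and −0.38 with library size alone). Rps9 was also lower in the Il23a (−0.73 and −0.37) and Rsad2 (−0.48 and −0.42) clusters on both scalings. Rps27 lay between 1927 and 2685 CPM in all 4 clusters and was lower in the Adamdec1 cluster with TMM (−0.56) but not with library size alone (0.07). Rpl3l was lower in the Adamdec1 (−1.72) and Il23a (−1.67) clusters, and its neighbour Msrb1 had means of 450 and 616 CPM there against 1670 in the Asprv1 cluster.

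**Figure D4:**
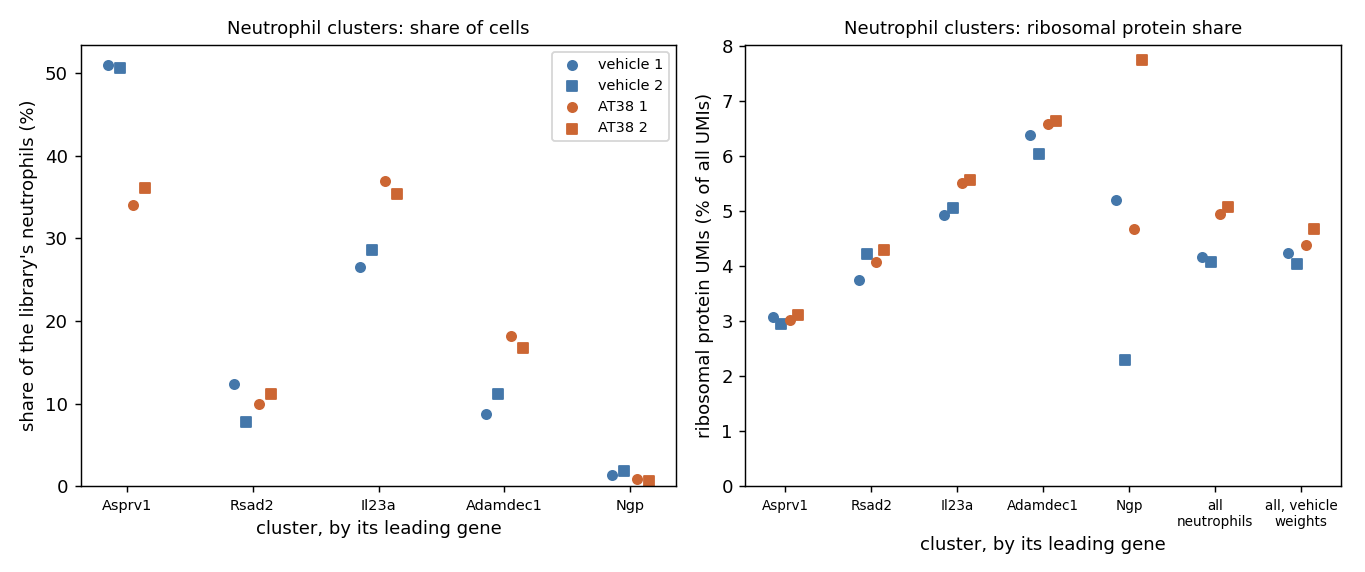
Ribosomal protein share of UMIs (percent) in each neutrophil cluster and the share of neutrophils in that cluster (percent), 1 point per library, vehicle and AT38 in different colours. As shares of summed UMIs the clusters do not overlap, except for the Ngp cluster, whose libraries run from 2.29% to 7.76%. The Asprv1 cluster holds 50.9% and 50.6% of neutrophils with vehicle and 34.1% and 36.1% with AT38. Also drawn is the ribosomal protein share of all neutrophils, as counted and with the clusters weighted as in the vehicle libraries.

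AT38 was compared with vehicle within each class. In neutrophils the ribosomal protein share was 4.12% ± 0.0658 with vehicle and 5.01% ± 0.0887 with AT38 (SD, n = 2), a difference of 0.891 percentage points, and the groups did not overlap. Both AT38 libraries lay above both vehicle libraries for 78 of the 82 members, and this order was found in 37.5% of all genes with at least 40 UMIs. Of 81 tested members 9 were called higher (1.55% of all genes) and 0 lower (3.84%), 42 had an unadjusted p under 0.05, and DESeq2 called 4. Their median log2 difference was 0.20 against 0.01 over all genes. With library size alone 45 were called higher and 0 lower (4.58% and 2.05% of all genes), and the medians were 0.33 and 0.13.

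Of the 9 called members the largest rise was in Rpl32, a large subunit protein, at 400 and 391 CPM with vehicle and 563 and 576 CPM with AT38 (0.40 ± 0.0853, SE, adjusted p = 0.00604). Rpl11 stood at 344 and 358 CPM with vehicle and 477 and 531 CPM with AT38 (0.39 ± 0.0892, adjusted p = 0.00925). Rpl32, Rpl11, Rpl10a, Rps18 and Rps2 were picked under a rule that the groups must not overlap, so their non-overlap was set in advance. Rpl10a rose from 149 and 148 to 202 and 216 CPM (0.37, adjusted p = 0.0315), Rps18 from 230 and 226 to 306 and 335 CPM (0.37, adjusted p = 0.0215), and Rps2, the entry-tunnel protein of the small subunit, from 386 and 346 to 461 and 564 CPM (0.36, adjusted p = 0.0388). The other 4 were Rps19 (0.33), Rpl22 (0.33), Rpl15 (0.33) and Rpl26 (0.30). Of members named whatever their value, Rplp0 (0.21), Rplp1 (0.23), Rps4x (0.29) and Rps27l (0.25) did not pass, and Rps27 stood at −0.10 (adjusted p = 0.535). The largest value of any tested member was that of Rpl3l, at 11.9 and 11.9 CPM with vehicle and 20.4 and 23.5 CPM with AT38 (0.75 ± 0.230, SE, adjusted p = 0.0596), which passed with library size alone (0.88, adjusted p = 0.0236). Scaled to the ribosomal protein pool 1 member was called.

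Of the wider lists in neutrophils, where 1.55% of all genes were called higher, 2 of 28 ribosome biogenesis genes rose with AT38, Nop58 (0.76) and Nhp2 (0.95), both proteins of small nucleolar RNA particles. Also 2 of 30 initiation factors rose, the eIF3 genes Eif3m (0.68) and Eif3e (0.53), as did 3 of 71 mitochondrial ribosomal proteins, led by Mrpl52 (0.76), and Rpl36al (0.46). None of 8 elongation factors was called, and the TOP mRNA of the filament gene Vim was lower (−0.40).

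The make-up of the neutrophils moved with AT38. The Il23a cluster held 26.5% and 28.6% of neutrophils with vehicle and 36.9% and 35.4% with AT38, and the Adamdec1 cluster 8.80% and 11.2% against 18.1% and 16.8%, while the Asprv1 cluster, lowest in ribosomal protein mRNA, shrank. With the clusters weighted by their UMIs in the vehicle libraries, the shares were 4.24% and 4.04% with vehicle and 4.39% and 4.67% with AT38. That is a difference of 0.393 points, and the groups still did not overlap. The weighting includes the small Ngp cluster, at 5.21% and 2.29% with vehicle (14 and 31 cells) and 4.69% and 7.76% with AT38 (9 and 5 cells). How far the 0.393 points rest on those few deep cells was not tested. Fitted alone, the Asprv1 cluster had 1 member called (0.574% of all genes higher, 1.26% in either direction), Rpl3l, at 16.4 and 14.5 CPM with vehicle and 43.0 and 42.1 CPM with AT38 (1.44 ± 0.29, SE, adjusted p = 0.0267). Msrb1 moved the same way there, from 1445 and 1453 to 1818 and 1962 CPM. By edgeR 0 members were called in the Il23a cluster (1.86% of all genes in either direction, 14 members at an unadjusted p under 0.05), in the Adamdec1 cluster (0.155%, 4) and in the Rsad2 cluster (0.666%, 0). Within clusters only edgeR was run for AT38. Rpl32, at 0.40 over all neutrophils, was at 0.03 in the Asprv1, 0.27 in the Il23a, 0.17 in the Adamdec1 and 0.06 in the Rsad2 cluster.

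Other values moved with AT38 in the same neutrophils. The summed level of the 10 neutrophil markers was 78106 and 82254 CPM with vehicle and 68584 and 68648 CPM with AT38. The 9 acinar markers, genes of digestive enzymes, summed to 50.6 and 48.1 CPM and to 140 and 145 CPM. The 10 nuclear-retained and dissociation-induced genes summed to 33099 and 32960 CPM with vehicle and 37163 and 36983 CPM with AT38, without overlap. The 9 T cell markers were at 84.8 and 81.4 against 119 and 67.7 CPM, and at 5735 to 6310 CPM in T cells themselves. In the shallower cells of each library the median share per cell was 3.16% and 3.06% with vehicle and 3.16% and 3.20% with AT38, and in the deeper cells 3.59% and 3.78% against 5.16% and 4.98%. The groups differed in the deeper neutrophils and lay close together in the shallower ones. The part of these values in the rise was not tested.

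**Figure D5:**
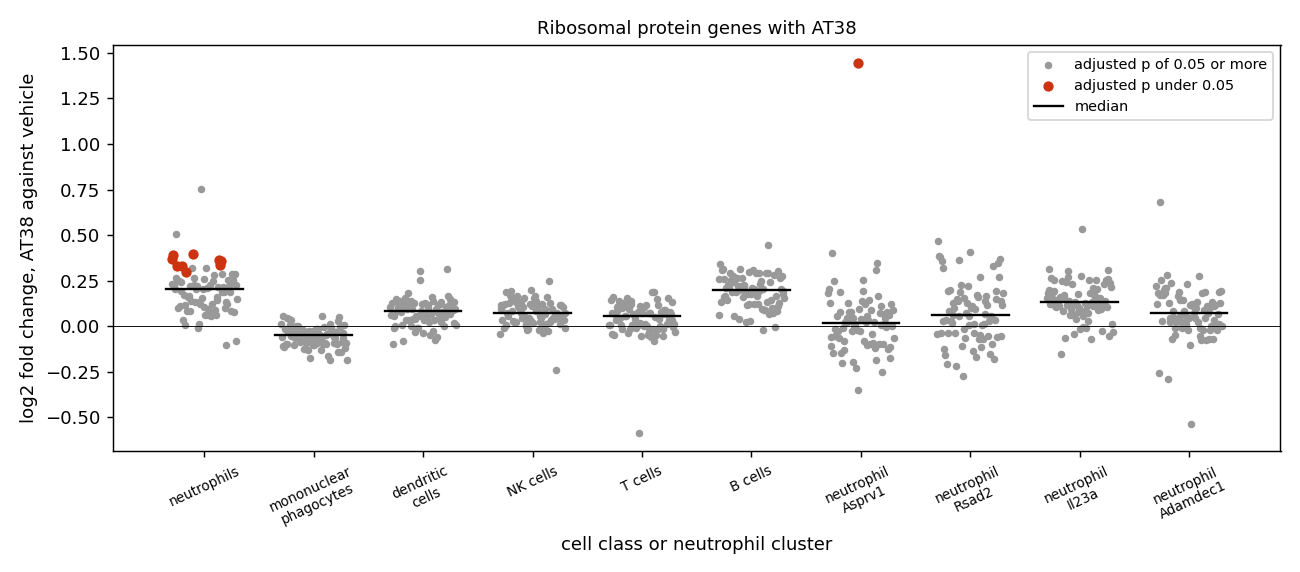
AT38 against vehicle: log2 difference of each tested member (y axis) by cell class and neutrophil cluster, 1 point per member, called members marked, lines at the median. The neutrophil points centre on 0.20 with 9 called, the B cell points also centre on 0.20 with none called, and the phagocyte points centre on −0.05.

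In the other classes 0 members were called by edgeR or DESeq2. In B cells the share was 21.1% with vehicle and 23.0% with AT38 as group means, without overlap, and both AT38 libraries lay above both vehicle libraries for 58 of 82 members and below for 2 (13.9% and 22.6% of all genes with at least 40 UMIs). Their median log2 difference of 0.20 was as large as in neutrophils. Of 80 tested members 0 were called (0.116% of all genes in either direction), and 32 had an unadjusted p under 0.05. B cells were fewer, 151 in AT38 2 and 259 in AT38 1. Without vehicle 1, 11 members were called. The nuclear-retained and dissociation-induced list summed to 32046 and 34149 CPM with vehicle and 28575 and 27774 CPM with AT38 in B cells. The 8 naive-like markers summed to 3865 and 4881 against 3413 and 3152 CPM, and the part of either list was not tested.

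Phagocytes had shares of 13.9% and 13.57% with vehicle and 13.54% and 12.9% with AT38, a narrow gap, and macrophages and monocytes each overlapped between the groups. The low-depth macrophage cluster went the other way, at 11.4% and 10.2% against 12.4% and 13.8%. In phagocytes the 10 macrophage markers summed to 7079 and 8434 CPM with vehicle and 10646 and 11655 CPM with AT38, and the nuclear-retained list to 22185 and 22233 against 24513 and 25570 CPM. Their part in the shares was not tested. In phagocytes 32 members lay below and 3 above (19.2% and 20.1%). By edgeR 0 of 82 were called (1.32% of all genes), 1 at an unadjusted p under 0.05, with a median of −0.05. Dendritic cells had 0 called (0.027%, 1 unadjusted, median 0.08), T cells 0 (0.134%, 3 unadjusted, median 0.06) and NK cells 0 (0.0878%, 1 unadjusted, median 0.07). In T cells the order of the libraries was split, with 16 members above and 13 below (14.4% and 21% of all genes with at least 40 UMIs). By state, shares were higher with AT38 without overlap in naive-like T cells (28.0% and 27.8% against 28.6% and 29.0%), in antigen-experienced CD4 T cells (16.3% and 16.01% against 16.7% and 16.8%) and in the other T cells (22.03% and 21.9% against 22.4% and 22.6%). In regulatory T cells they were lower (17.3% and 16.002% against 15.9% and 15.5%), with AT38 1 close to vehicle 2, and in CD8 and gamma-delta T cells the groups overlapped. These differences by state were not tested.

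Whether the AT38 effect differed between classes was tested as an interaction in the same libraries. For T cells against neutrophils 1 member was called, in the direction of a smaller effect in T cells (0.551% of all genes called lower and 1.25% higher): Rps19 rose in neutrophils from 483 and 457 to 644 and 651 CPM and stood at 2798 and 2650 CPM with vehicle and 2607 and 2709 CPM with AT38 in T cells (−0.35 ± 0.0973, SE, adjusted p = 0.0265). For phagocytes against neutrophils 2 members were called (0.515% of all genes lower and 0.882% higher), Rps19 (−0.53 ± 0.115, adjusted p = 0.00992) and Rpl32 (−0.45 ± 0.116, adjusted p = 0.0401). In phagocytes Rps19 stood at 2190 and 2079 CPM with vehicle and 1934 and 1811 CPM with AT38, and Rpl32 at 1897 and 1837 against 1798 and 1811 CPM. Scaled to library size alone, 40 members were called lower in the T cell and 38 in the phagocyte interaction (2.27% and 2.68% of all genes), with all-gene medians of −0.18 and −0.13. DESeq2 called 0 members in either interaction, and without vehicle 1 or without vehicle 2 neither Rps19 nor Rpl32 passed.

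Leaving out libraries or shallow cells changed the calls in neutrophils. Without vehicle 1 or without vehicle 2 none of the 81 members was called, and without AT38 2 only 1 was, whereas without AT38 1 the count was 9. With a minimum of 500 genes per cell 0 were called. The log2 differences themselves stayed above 0 in each of these fits, for example 0.37 to 0.42 for Rpl32 and 0.20 to 0.50 for Rps2.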

How the data were processed

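Each deposited matrix gives UMI counts as whole numbers for every gene in every barcode. Per the submitters' processing notes, Cell Ranger 3.1.0 and the mouse build mm10 were used. The annotation release, and how reads that match several genes were counted, are not given in the sources used here. Gene positions came from GENCODE M21 (GRCm38) by Ensembl ID.

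Of 18001 barcodes, 14855 passed the filters of no fewer than 200 genes, no fewer than 500 UMIs and no more than 10% of UMIs from mitochondrial genes. The highest scrublet scores were removed as doublets at 0.8% per 1000 barcodes (561, or 3.78%), since the automatic threshold called 0.0539%. Clusters (scanpy 1.11.5, 2000 variable genes, 30 components, 15 neighbours, Leiden resolution 1) were made without 287 ribosomal protein and translation genes and without integration. They were named from marker lists when at least 3 markers were found in 10% of cells.

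UMIs were summed per library and class (at least 20 cells in every library) and tested two-sided with edgeR 4.0.16 (robust quasi-likelihood, TMM, filterByExpr, adjusted p under 0.05 over all genes tested). The scripts were tested on simulated data. Errors of log2 differences are the model's standard errors, and CPM are counts scaled to the library's UMIs in the class. Intervals for counting error were not needed, as every value has replicate libraries. Nothing in the labels says that a replicate number pairs libraries. Alternatives were other filters, clustering, DESeq2 1.42.0, no low-count filter, pool scaling, library size without TMM (chosen after the data had been seen), a replicate block and each library left out.

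Members named were the 3 highest and 3 lowest called in each contrast within the ribosomal protein pool and within a lineage (mean of at least 10 CPM), up to 5 rises and falls with AT38, up to 3 genes per pathway list by smallest p, and the stalk, paralog and single genes set by name. The members and lists were chosen with earlier results of these data known. Neutrophil clusters, and the low-depth macrophage cluster, were examined after the data had been seen. Some members named by this rule are not reported here.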

Additional observations from a re-analysis of the deposited data

Results flagged for a closer look

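The AT38 effect on Rps19 differed between T cells and neutrophils in a test of the difference itself (−0.35 on the log2 scale, T cells minus neutrophils). It also differed between mononuclear phagocytes and neutrophils (−0.53, phagocytes minus neutrophils). For Rpl32 the difference between phagocytes and neutrophils was −0.45. Both genes were higher with AT38 in both neutrophil libraries, and Rps19 was lower in both phagocyte libraries.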

How the results depend on the processing

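Of the shares and counts recomputed across settings, 336 stayed within 1.5 times the count or 1 SD of the share, and 48 did not. Only the AT38 difference in the neutrophil share could change sign among these values, and it did not. Taking the median over cells gave shares of 3.58% in neutrophils, 11.7% in phagocytes, 18.5% in T cells and 18.0% in NK cells. With at least 500 genes per cell the neutrophil share was 5.34%, the AT38 difference there 1.43 points, and 35 members were called within the pool in B cells. That difference was 0.788 points with up to 20% mitochondrial UMIs, 0.495 with medians over cells and 0.393 at vehicle cluster weights. Members called with AT38 in neutrophils numbered 4 with up to 20% mitochondrial UMIs, 4 with DESeq2, 1 scaled to the pool, 0 with at least 500 genes, and 1, 0, 0 and 0 in the Asprv1, Il23a, Adamdec1 and Rsad2 clusters alone. With the replicate block 0 were called. With library size alone in place of TMM, 45 members were called with AT38 in neutrophils, 40 in the T cell and 38 in the phagocyte interaction, 30 were lower in phagocytes and 19 in macrophages against monocytes, and Rps27l in neutrophils changed sign to −0.37. The labels give no pairing, and deviations of same-numbered libraries correlated at −0.02 to 0.26 over genes by class, with only 2 pairs.

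Without the low-count filter 34 members were lower in phagocytes and 25 higher in the Rsad2 cluster. The T cell interaction had 2 members with doublets kept and 0 with at least 500 genes, translation genes kept for clustering, DESeq2 or no low-count filter. The phagocyte interaction had 1 at Leiden resolution 0.5 and 0 with at least 500 genes or DESeq2. Leaving out 1 library at a time gave 24 to 30 members within the phagocyte pool, 0 to 9 with AT38 in neutrophils, 0 to 1 in dendritic cells and 0 to 11 in B cells, 0 to 0 in the T cell interaction and 0 to 15 in the phagocyte interaction. Where a library is left out, its lone partner is assumed to vary like the other group. Of the single genes, 83 values no longer passed, 8 newly passed, 1 changed sign and 250 kept their call. The cause was not tested. Macrophages against monocytes could not be run at resolution 0.5, which gave no monocyte class. Depth limits Rpl3l and Rpl39l most.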
